A study of Mus musculus with 9 samples.

Results

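The surface proteins that are used to recognise group 2 innate lymphoid cells (ILC2s) or that carry activating and inhibitory signals at their surface include the products of Klrg1, Icos, Icosl, Kit, Thy1, Cd69 and Ptprc, whose RNA levels are described here. They are picked by name, with no threshold on a measured value, and are 7 of the 23234 genes listed in every library. Each of the 9 RNA-seq libraries was made from ILC2s cultured for 48 h. The cells came from wild-type mice of the C57BL/6 strain and were taken from fat-associated lymphoid clusters, the small lymphoid aggregates of visceral fat. Of these, 3 libraries had IL-33 and IFN-γ (the IFN-γ group), 3 had IL-33 and IL-27 (the IL-27 group) and 3 had IL-33 alone (the IL-33 group), with the cytokines at 10 ng/ml. All groups therefore held IL-33, and no culture without it is part of the comparison. The labels give neither the age of the mice nor whether cells were pooled or replicates came from separate animals or cultures, so the p-values below describe the spread between these libraries, which may be technical. The protein on the cell surface was not measured.

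ILC2s are lymphocytes without rearranged antigen receptors that respond to alarm cytokines such as IL-33 and make type 2 cytokines. Because no single antigen receptor marks them, they are recognised by sets of surface proteins: CD45 (Ptprc) as a leukocyte, Thy1 as a lymphoid cell, and KLRG1, KIT and ICOS as proteins that ILC2s of different tissues and states carry. ILC2s can carry both ICOS and its ligand, and ICOS engagement is known to aid their survival and cytokine output, while KLRG1 is an inhibitory receptor and CD69 appears after activation and keeps lymphocytes in tissue.

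Levels are FPKM, fragments per kilobase of transcript, scaled by the authors to the mapped fragments of each library. The deposited values summed to between 628625 and 672534 FPKM per library, and their spacing at low levels corresponded to roughly 970000 to 1.07e+06 counted fragments, an approximate depth at which 1 fragment in a gene of 2 kb was worth 0.518 to 0.574 FPKM. Of the genes that mark ILC2s, Gata3 was at 161 to 348 FPKM over the libraries and Il1rl1, the IL-33 receptor, at 253 to 976 FPKM. Others were low or absent. Tcf7 was at 0.461 to 2.9 FPKM with IL-27, 0.922 to 4.53 FPKM with IL-33 alone and at least 5.3 FPKM with IFN-γ. Among receptors used to gate ILC2s, Gpr44 was at 0 in every library. Il17rb was at 0 in IL-33 library 2 and above 0 in all others. Summed over 11 ILC2 genes, the level was 5799 to 9506 FPKM in the IFN-γ group, 12246 to 12798 FPKM in the IL-27 group and 14458 to 22173 FPKM in the IL-33 group. The cytokine genes Il5 and Il13 made up most of these sums, and the other 9 genes together had overlapping ranges of 1632 to 2708 FPKM with IFN-γ, 2286 to 3570 FPKM with IL-27 and 1917 to 3007 FPKM with IL-33 alone. Small RNAs made up 11.9% to 18.0% of the summed FPKM in the libraries numbered 1 and 3.51% to 8.16% in the others. Libraries of equal number deviated together, so results are given from the comparison without the number and, where it changes a call, with the number as a block.

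All 7 genes were detected in all 9 libraries and passed the minimum mean of 1 FPKM, under which 11014 genes were tested. Klrg1, an inhibitory lectin-like receptor that binds cadherins, had the highest mean level of the 7 over all libraries, 227 FPKM, in the top 3.69% of tested genes. It was followed by Ptprc, the receptor phosphatase CD45, at 219 FPKM, and by Thy1, a small glycolipid-anchored protein, at 76.2 FPKM. Icos averaged 53.8 FPKM, Kit 41.2 FPKM and Cd69 24.4 FPKM. Icosl, the gene of the ICOS ligand, was lowest at 6.74 FPKM, and 70.0% of tested genes had at least its mean level. FPKM is per length of transcript, so these levels can be set against each other. Klrg1 and Ptprc could not be ordered: Klrg1 was the higher in 6 of 9 libraries, and their ranges overlapped in all 3 groups. Ptprc was above Thy1 in 9 of 9 libraries without overlap in any group. Thy1 was above Icos in 9 of 9 libraries, but their ranges overlapped in each of the 3 groups, and Icos and Kit changed places, with Icos higher in 5 of 9 libraries. Kit was above Cd69 in 8 of 9 and Cd69 above Icosl in 9 of 9 libraries, and in both cases the ranges overlapped in the IL-33 group alone.

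**Figure D1:**
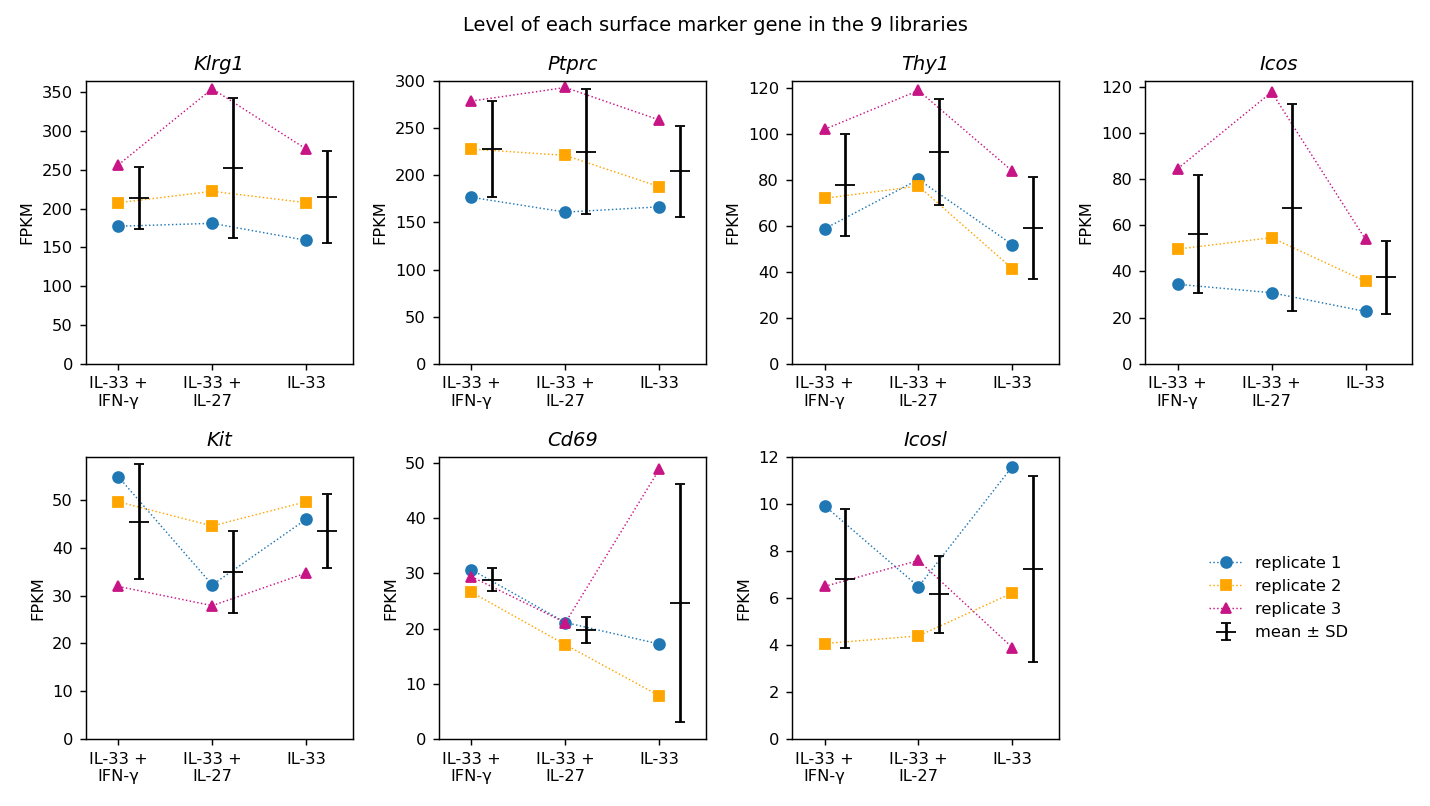
FPKM of the 7 genes (1 panel each, linear axis from 0) in the 9 libraries by group, with the replicate number given by marker and dotted line and the group mean ± SD beside the points. Replicate 3 is highest in every group for Klrg1, Ptprc, Thy1 and Icos and lowest for Kit, and Cd69 is spread between 7.89 and 48.8 FPKM in the IL-33 group.

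Without the library number as a block, none of the 7 genes passed the test in any of the 3 comparisons. The limma counts in this paragraph are from that fit. With the block, Icos and Thy1 passed for IL-27 against IL-33, as given below. Across all genes, limma with Benjamini-Hochberg adjustment called 2.91% of tested genes between the IFN-γ and IL-33 groups, 1.03% between the IL-27 and IL-33 groups and 0% between the IFN-γ and IL-27 groups, each against 0 of the 7. At an unadjusted p under 0.05 the counts were again 0 of the 7 in each comparison, against 15.4%, 9.51% and 4.39% of tested genes. The ranges of every one of the 7 genes overlapped in both comparisons with IL-33, in which 20.6% (IFN-γ) and 14% (IL-27) of tested genes had ranges that did not. The median size of change of the 7, on the log2 scale and regardless of sign, was 0.16 for IFN-γ against IL-33, 0.21 for IL-27 against IL-33 and 0.20 for IFN-γ against IL-27, beside 0.29, 0.24 and 0.19 over all tested genes. Both cytokine comparisons use the same 3 IL-33 libraries, so they are not independent of each other. In bulk RNA, fewer cells of a type and less RNA per cell cannot be told apart.

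Thy1 and Icos had the smallest p-values of the 7 against IL-33 once libraries were compared within their number, and both were higher with either cytokine in all 3 numbers. Thy1 (ENSMUSG00000032011.4, mm9 chromosome 9, 43851467 to 43856662, plus strand) encodes the Thy-1 antigen by which lymphoid cells are often gated. It stood at 58.7, 72.0 and 102.0 FPKM in IFN-γ libraries 1, 2 and 3, at 80.2, 77.3 and 118.9 FPKM in IL-27 libraries 1, 2 and 3, and at 51.8, 41.3 and 83.8 FPKM in IL-33 libraries 1, 2 and 3. In every group library 3 was the highest, and the groups overlapped because IL-33 library 3 lay above both lower libraries of each other group. Within each number, however, Thy1 was higher with IL-27 than with IL-33 alone, by 1.55-, 1.87- and 1.42-fold in FPKM. The means were 92.1 ± 23.2 FPKM in the IL-27 group and 59.0 ± 22.1 FPKM in the IL-33 group (SD, n = 3 each). The log2 fold change was 0.67 with an SE of 0.30, and limma gave a Benjamini-Hochberg adjusted p of 0.529 (95% interval −0.01 to 1.34). With the library number as a block the same change had an SE of 0.13 and an adjusted p of 0.0320 in limma, past the threshold of 0.05. For IFN-γ the mean was 77.6 ± 22.2 FPKM (SD, n = 3), the log2 fold change against the IL-33 group was 0.41 with a 95% interval of −0.26 to 1.09, and limma's adjusted p was 0.576, or 0.0935 with the block. Again all 3 numbers had the higher value with IFN-γ.

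Icos (ENSMUSG00000026009.8, mm9 chromosome 1, 61034771 to 61057164, plus strand) encodes the inducible costimulator, a receptor of the CD28 family. Its levels were 34.4, 49.7 and 84.6 FPKM in IFN-γ libraries 1, 2 and 3, and 30.8, 54.7 and 117.8 FPKM in IL-27 libraries 1, 2 and 3. In IL-33 libraries 1, 2 and 3 they were 22.7, 35.7 and 53.9 FPKM. The order of the numbers was the same in each group, with library 1 lowest and library 3 highest, and that spread within a group was wider than the distance between groups, so all groups overlapped. The means were 56.3 ± 25.7 FPKM with IFN-γ, 67.8 ± 45.0 FPKM with IL-27 and 37.4 ± 15.7 FPKM with IL-33 alone (SD, n = 3 each). The log2 fold change with IL-27 was 0.71 with an SE of 0.50 and a 95% interval of −0.40 to 1.83, and the adjusted p in limma was 0.732. With the block the SE was 0.15 and limma's adjusted p was 0.0399. Within the numbers Icos FPKM was 1.36-, 1.53- and 2.19-fold higher with IL-27, and 1.52-, 1.39- and 1.57-fold higher with IFN-γ. The IFN-γ change of 0.56 on the log2 scale (95% interval −0.55 to 1.68) had an adjusted p of 0.663 in limma and of 0.0546 with the block, just outside the threshold. With the block and 1 library left out, this IFN-γ change missed the threshold in 8 of 9 fits (adjusted p 0.0361 to 0.170 in limma) and passed without IL-27 library 3.

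These blocked calls, 2 of the 7 genes for IL-27 and both upward, stand beside 3.37% of all tested genes called higher, and 5.15% called in either direction, in the same blocked comparison. For IFN-γ the blocked comparison called 0 of the 7 in limma, beside 11.2% of all genes in either direction. Icos and Thy1 had an unadjusted p under 0.05 in that fit. The share of all genes at that unadjusted level was not counted with the block, and is at least the 11.2% called. Between the IFN-γ and IL-27 groups the blocked comparison called 0 of the 7, beside 0.182% of all genes. Kit had an unadjusted p under 0.05 there, and the share of all genes at that level was again not counted. The calls for IL-27 did not survive the loss of most single libraries: under the block, Icos missed the threshold in 8 of 9 such fits (adjusted p 0.0492 to 0.138 in limma), all but the one without IFN-γ library 1. Thy1 missed it in 7 of 9 (adjusted p 0.0323 to 0.144 in limma), all but those without IFN-γ library 1 or 2. With libraries 1 and 2 alone and the block, limma's adjusted p was 0.205 for Icos and 0.131 for Thy1. A shared direction in all 3 numbers is not rare in these data. Against IL-33, 3 of the 7 genes were higher in all 3 numbers with IFN-γ (Icos, Thy1 and Ptprc), beside 24.4% of tested genes, and 3 of the 7 with IL-27 (Klrg1, Icos and Thy1), beside 23.1%.

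Icosl (ENSMUSG00000000732.7, mm9 chromosome 10, 77532105 to 77546000, plus strand) encodes the ligand that ICOS binds. Its levels were 9.93, 4.07 and 6.5 FPKM in IFN-γ libraries 1, 2 and 3, 6.49, 4.39 and 7.6 FPKM in IL-27 libraries, and 11.6, 6.22 and 3.9 FPKM in IL-33 libraries. No group stood higher than another, and the ranking of the numbers did not repeat between groups. Each value rested on only about 9.95 to 29.1 fragments, so counting error alone is large here. The log2 change was −0.03 with IFN-γ (95% interval −0.93 to 0.86, adjusted p 0.983 in limma) and −0.12 with IL-27 (−1.01 to 0.77, adjusted p 0.966). These intervals still hold changes of nearly 2-fold in either direction.

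Klrg1 (ENSMUSG00000030114.8, mm9 chromosome 6, 122220614 to 122232900, minus strand) stood at 177, 208 and 257 FPKM in IFN-γ libraries 1, 2 and 3. It stood at 181, 222 and 354.8 FPKM in IL-27 libraries and at 159, 208 and 277 FPKM in IL-33 libraries. The 3 groups overlapped and each had its highest value in library 3. The mean was 213.9 ± 40.0 FPKM with IFN-γ, 252.8 ± 90.7 FPKM with IL-27 and 214.7 ± 59.2 FPKM with IL-33 alone (SD, n = 3 each). The log2 change with IFN-γ was 0.02 and its sign turned under median-of-ratios scaling and without small RNAs, with a 95% interval of −0.62 to 0.65 and an adjusted p of 0.991 in limma. With IL-27 it was 0.21, with an interval of −0.42 to 0.85 and an adjusted p of 0.887.

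Ptprc (ENSMUSG00000026395.8, mm9 chromosome 1, 139959438 to 140071882, minus strand), which encodes the phosphatase that activates Src-family kinases in leukocytes, followed the same ranking. It had 177, 228 and 279 FPKM in IFN-γ libraries 1, 2 and 3, 161, 221 and 293 FPKM in IL-27 libraries, and 167, 188 and 259 FPKM in IL-33 libraries. Library 1 was lowest and library 3 highest in every group, and the group ranges nearly coincided. The log2 change was 0.16 with IFN-γ (95% interval −0.44 to 0.75, adjusted p 0.853 in limma) and 0.12 with IL-27 (−0.47 to 0.71, adjusted p 0.939). Ptprc had the most fragments of the 7, about 874 to 1707 per library. The deposited values are per gene and do not separate the CD45 isoforms.

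Kit (ENSMUSG00000005672.6, mm9 chromosome 5, 75970941 to 76052747, plus strand) encodes the receptor of stem cell factor, found on part of the ILC2s and on mast cells. Its levels were 54.8, 49.5 and 31.9 FPKM in IFN-γ libraries 1, 2 and 3, 32.2, 44.5 and 27.9 FPKM in IL-27 libraries, and 45.9, 49.6 and 34.7 FPKM in IL-33 libraries. Kit was the gene of the 7 whose lowest value fell in library 3 of every group. It was lower with IL-27 than with IL-33 in all 3 numbers, as were 19.5% of tested genes, and the ranges overlapped. The mean was 34.9 ± 8.62 FPKM in the IL-27 group and 43.4 ± 7.75 FPKM in the IL-33 group (SD, n = 3 each). The log2 change was −0.32 with a 95% interval of −0.90 to 0.26, and limma's adjusted p was 0.781, or 0.268 with the block. IFN-γ libraries averaged 45.4 ± 12.0 FPKM (SD, n = 3), and their log2 change of 0.04 against IL-33 (−0.54 to 0.62, adjusted p 0.967) changed sign when small RNAs were removed.

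Cd69 (ENSMUSG00000030156.3, mm9 chromosome 6, 129217342 to 129225387, minus strand) encodes an early activation antigen that opposes tissue egress. It had 30.7, 26.6 and 29.4 FPKM in IFN-γ libraries 1, 2 and 3, and 21.1, 17.1 and 21.1 FPKM in IL-27 libraries. The IL-33 libraries had 17.2, 7.89 and 48.8 FPKM, so the lowest and the highest value of all 9 belonged to this group. The coefficient of variation was 7.21% with IFN-γ, 11.7% with IL-27 and 87.0% with IL-33 alone; these 3 values were not tested against each other. Against IL-33, limma gave a log2 change of 0.57 with IFN-γ (95% interval −0.53 to 1.67, adjusted p 0.649). This value depended on both IL-33 library 2 and IL-33 library 3. Without IL-33 library 3 the log2 change was 1.23 (adjusted p 0.0774 in limma). With the block and that library left out it was 1.20 (adjusted p 0.0298 in limma, the only blocked omission of 9 that passed). Without IL-33 library 2 the unblocked change was −0.01. With IL-27 the change was 0.04 (−1.05 to 1.14, adjusted p 0.993), was 0.70 without IL-33 library 3 and −0.54 without IL-33 library 2, and turned to below 0 with a pseudocount of 5 or without small RNAs.

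Between the IFN-γ and IL-27 groups, which share no libraries, Cd69 was the gene of the 7 whose ranges did not overlap. All 3 IFN-γ libraries lay above all 3 IL-27 libraries, as was so for 5.5% of tested genes in that direction. The mean was 28.9 ± 2.08 FPKM with IFN-γ and 19.8 ± 2.31 FPKM with IL-27 (SD, n = 3 each), and the log2 difference was 0.53 with a 95% interval of −0.57 to 1.63. The adjusted p was 1 in limma, or 0.684 with the block. That fit shares its estimate of spread with the IL-33 group, in which Cd69 varied most. A fit of the IFN-γ and IL-27 libraries alone did not call Cd69 either, with a limma adjusted p of at least 0.684. Cd69 and Kit were higher with IFN-γ than with IL-27 in all 3 numbers, as were 18% of tested genes, and Klrg1 and Thy1 were lower in all 3, as were 15.7%. Kit had a log2 difference of 0.36 (−0.22 to 0.94) and an adjusted p of 1, or 0.398 with the block. The other 5 genes differed by between −0.25 and 0.09 on the log2 scale, each with an interval that included 0 and an adjusted p of 1.

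**Figure D2:**
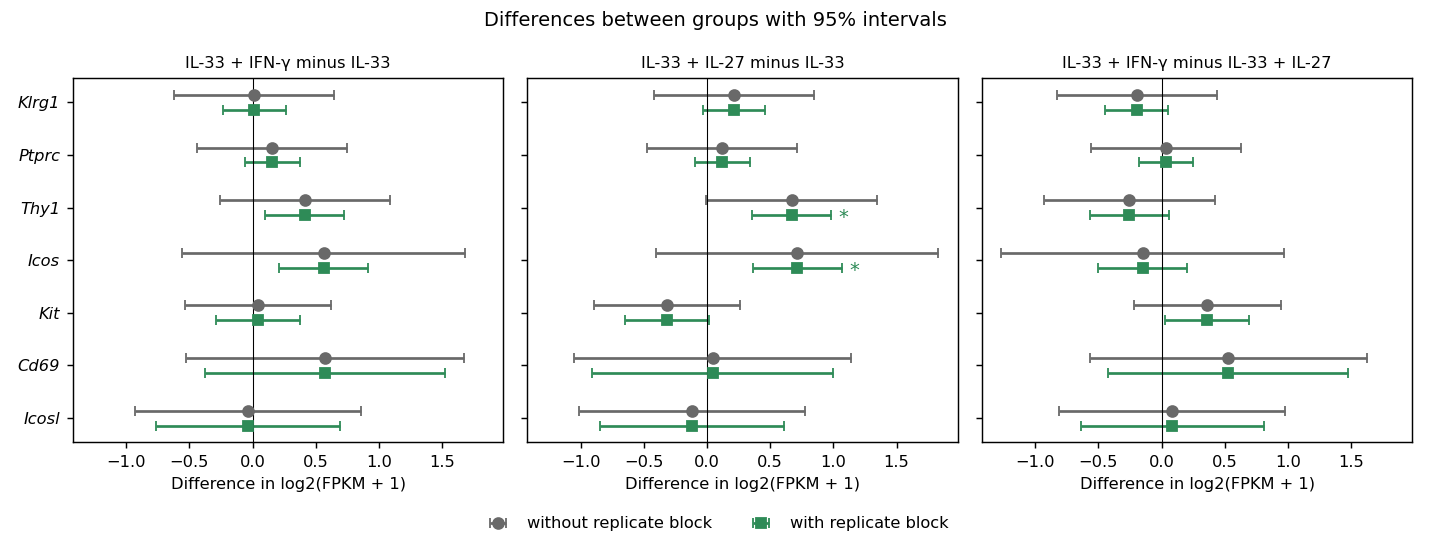
Log2 fold change of each of the 7 genes for IFN-γ against IL-33, IL-27 against IL-33 and IFN-γ against IL-27, with 95% intervals from the fit without and with the library number as a block. All intervals without the block include 0. With the block, the intervals of Icos and Thy1 against IL-33 lie above 0 for both cytokines, as does that of Kit between IFN-γ and IL-27, and asterisks mark the 2 with an adjusted p under 0.05.

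The library number accounted for more of the spread of each of the 7 genes than the cytokines did. Of the sum of squares of log2 values over the 9 libraries, the number took 91.7% for Ptprc, 86.0% for Klrg1 and 76.2% for Icos, while the cytokine group took 4.80%, 8.20% and 20.1%. For Kit the number took 62.0% and the group 25.3%, and for Thy1 54.4% and 38.9%. For Icosl the number took 55.4% and the group 1.26%, and for Cd69 37.2% and 16.0%. Cd69 and Icosl left the most to neither, 46.8% and 43.3%. The average tested gene had 40.8% by number, 29.9% by group and 29.3% by neither. These shares are descriptions over 9 libraries, and what the numbers stand for is not given in the labels.

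**Figure D3:**
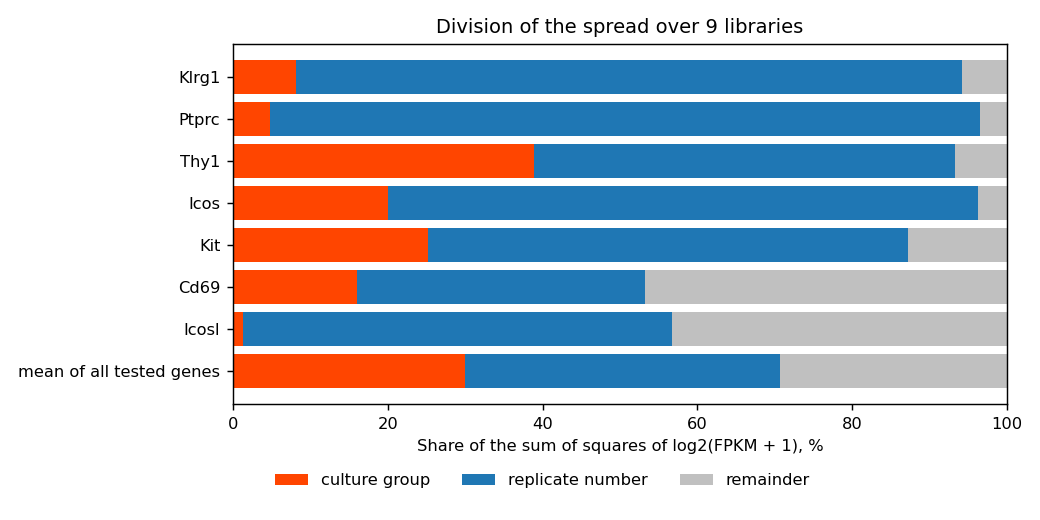
Share of the spread of log2(FPKM + 1) over 9 libraries that goes with the cytokine group, with the library number and with neither, for each of the 7 genes and as a mean of all tested genes. The part that goes with the number is 91.7% for Ptprc and 37.2% for Cd69.

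Library number 3 also differed in markers of other cells. The summed level of 8 fibroblast genes, a cell type that can carry Thy1, was 36.2 to 86.5 FPKM in the libraries numbered 3 and 2.92 to 17.6 FPKM in the others, and by group it was 3.94 to 86.5 FPKM with IFN-γ, 7.67 to 63.7 FPKM with IL-27 and 2.92 to 36.2 FPKM with IL-33. None of these 8 genes was at 0 in all libraries. The 9 T cell genes, a cell type that carries Icos, Thy1 and Cd69, summed to 82.0 to 105 FPKM in the libraries numbered 3 and 34.7 to 49.0 FPKM in the others, of which Cd3g alone made up 28.4 to 97.6 FPKM. By group these sums were 36.2 to 83.3 FPKM with IFN-γ, 48.6 to 105 FPKM with IL-27 and 34.7 to 82.0 FPKM with IL-33. Cd4 and Cd5 were listed at 0 throughout, and Cd3e did not exceed 2.51 FPKM. Mast cells also carry Kit. The 8 genes of the joint list of mast cells and basophils summed to 0.761 to 9.3 FPKM with IFN-γ, 2.50 to 11.5 FPKM with IL-27 and 1.13 to 5.7 FPKM with IL-33, with Mcpt4, Mcpt8, Cma1 and Ms4a2 at 0. Those sums were highest in the libraries numbered 3, at 5.7 to 11.5 FPKM, where Kit was lowest. Fcer1a alone made up 4.9 to 8.3 FPKM of the sums in the libraries numbered 3. The B cell genes summed to 20.9 to 85.5, 33.2 to 57.7 and 34.5 to 41.5 FPKM in the IFN-γ, IL-27 and IL-33 groups and the macrophage and dendritic cell genes, which may carry Icosl, to 5.30 to 19.5, 1.16 to 17.6 and 3.54 to 10.3 FPKM. Pax5 was at 0 in the B cell list, as were Csf1r, C1qa and C1qb in the macrophage list. Pecam1 made up nearly all of the endothelial and mesothelial sum, which was 158 to 204 FPKM with IFN-γ, 81.7 to 106 FPKM with IL-27 and 50.0 to 78.3 FPKM with IL-33, and Kdr, Msln, Upk3b, Krt18 and Krt19 were at 0. The NK cell and ILC1 genes summed to at most 2.8 FPKM and the ILC3 genes to at most 10.02 FPKM in any library. The part of these markers in the levels of the 7 genes was not tested.

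The promoters of Ptprc and Kit are shown because these genes ranked library 3 at opposite ends in every group. The RefSeq table of build GRCm38.p6 matched 3 of the 7 genes. Its windows are given 5′ to 3′ on the strand of the gene, from 250 bases before the start site to 50 after it, and capitals mark a motif match.
Ptprc (GRCm38.p6, chr1:138175077-138175376, minus strand): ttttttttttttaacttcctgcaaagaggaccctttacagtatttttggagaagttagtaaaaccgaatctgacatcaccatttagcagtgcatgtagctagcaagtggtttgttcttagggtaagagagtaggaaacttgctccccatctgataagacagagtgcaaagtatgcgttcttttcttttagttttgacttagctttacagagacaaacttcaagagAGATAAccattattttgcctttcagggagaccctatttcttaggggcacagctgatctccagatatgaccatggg
Kit (GRCm38.p6, chr5:75574737-75575036, plus strand): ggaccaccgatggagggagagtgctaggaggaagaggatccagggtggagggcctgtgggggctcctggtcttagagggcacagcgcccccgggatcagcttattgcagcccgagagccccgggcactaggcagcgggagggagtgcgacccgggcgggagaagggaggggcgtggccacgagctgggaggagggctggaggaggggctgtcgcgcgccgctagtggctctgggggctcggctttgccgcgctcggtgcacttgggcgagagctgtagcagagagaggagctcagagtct
Both strands were searched for the STAT dimer site TTCNNNGAA, the core of the interferon-stimulated response element, the AP-1 site TGANTCA and the GATA site AGATAA, which are present in 8.3%, 3.44%, 7.81% and 11.2% of 32851 promoter windows of this length. The table gives 2 start sites each for Ptprc and Kit. The Ptprc window shown held 1 GATA match, 25 bases before the start site (position −25), and no other of these motifs, and the window of its other start site held none. Neither Kit window held any. A match of these letters describes the sequence and no binding was measured.

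The genes with the profile most like each of the 7 were sought over the 9 libraries by the root mean square (RMS) difference of centred log2 values, among the 6588 other genes whose mean reached 10 FPKM, or 6589 for Icosl, whose own mean is lower. Nearest to Klrg1 were Rab10, Arpc5 and Pde3b, at 0.09 to 0.11 against a spread of Klrg1 itself of 0.34 on the same scale, and nearest to Ptprc were Serpinb6a, Dpy19l3 and Stk4, at 0.06 to 0.08 against 0.31. Ptprc ranked 13 among the genes nearest to Klrg1. Thy1 was closest to Fxyd5, Plekhb2 and Gabarap at 0.10 to 0.14 against 0.44, and Kit to Mtch2, Txn2 and Snrpf at 0.10 to 0.12 against 0.32. Icos was followed less closely, by Crot, Ifngr1 and Tax1bp3 at 0.20 to 0.23 against 0.69, and Icosl by Chaf1a, Thap7 and Gga3 at 0.20 to 0.26 against 0.45. Cd69 had no near neighbour: Abhd4 and Tnfrsf18 lay at 0.35 against its own spread of 0.65.

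Other receptors by which ILC2s are gated did pass the test without the block. Of 10 tested genes of that list, 1 rose and 1 fell with IFN-γ, and 1 rose with IL-27. Of all tested genes 2.91% and 1.03% were called in these comparisons. Ly6a, the gene of Sca-1, had 3939 ± 851 FPKM with IFN-γ, 3760.0 ± 262 FPKM with IL-27 and 1392 ± 262 FPKM with IL-33 alone (SD, n = 3 each), log2 changes of 1.50 (limma adjusted p 0.00394) and 1.45 (0.00921). The IL-27 call for Ly6a was lost without IL-27 library 3, at an adjusted p of 0.0563. Il2ra, the high-affinity chain of the IL-2 receptor, fell with IFN-γ to 380 ± 57.1 FPKM, against 928 ± 77.9 FPKM with IL-33 alone (SD, n = 3 each), a log2 change of −1.29 with a limma adjusted p of 0.00495. With IL-27 it was at 521 ± 93.7 FPKM (SD, n = 3), with a limma adjusted p of 0.0795, or 0.00509 with the block. Under the block this list had 4 genes higher and 2 lower with IFN-γ, and 2 higher and 1 lower with IL-27. Of all tested genes the block called 11.2% and 5.15% in either direction. Between the IFN-γ and IL-27 groups the block called 1 gene of the list, beside 0.182% of all tested genes. This was Il1rl1, lower with IFN-γ by a log2 difference of −0.91 (limma adjusted p 0.0361 with the block).

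Among 8 tested genes of the wider CD28, B7 and TNF receptor families of costimulation, 1 rose and 1 fell with IFN-γ, and 1 fell with IL-27. The shares over all tested genes were 2.91% and 1.03%. Cd274, the inhibitory ligand PD-L1, had 30.9 ± 14.6 FPKM with IFN-γ, 16.4 ± 5.26 FPKM with IL-27 and 4.30 ± 1.23 FPKM with IL-33 alone (SD, n = 3 each), with log2 changes of 2.51 (limma adjusted p 0.00555) and 1.70 (0.0779, or 0.0184 with the block). Pdcd1, the receptor PD-1, fell with both, to 19.3 ± 3.89 FPKM with IFN-γ and 20.1 ± 4.18 FPKM with IL-27, against 84.2 ± 16.9 FPKM with IL-33 alone (SD, n = 3 each), log2 changes of −2.06 and −2.01 with limma adjusted p-values of 0.00175 and 0.0033. Tnfrsf9, the costimulatory receptor 4-1BB, stood at 8.28 ± 6.83 FPKM with IFN-γ and 92.9 ± 93.3 FPKM with IL-33 alone (SD, n = 3 each), with a limma adjusted p of 0.0873, or 0.00982 with the block. Cd28, the founding member of the family of Icos, was not tested and reached at most 1.36 FPKM. Under the block the list had 2 genes higher and 2 lower with IFN-γ, and 1 higher and 1 lower with IL-27. The blocked shares over all tested genes were 11.2% and 5.15%.

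Small glycolipid-anchored proteins, the class of Thy1, held the most called genes of the 9 lists of related genes. This list was drawn up with earlier results of these data known and holds Ly6a, Ly6c1, Ly6c2 and Ly6e. Its counts therefore describe the genes listed and cannot be read as a trait of the class. Of 8 tested, 4 rose with IFN-γ and 2 with IL-27, and none fell. Of all tested genes 2.91% and 1.03% were called in either direction. Under the block the counts were 4 and 4, beside 11.2% and 5.15% of all tested genes. Ly6a, Ly6c1 and Ly6c2 among the called genes are of the Ly6 family, and Ly6a is also counted among the gating receptors. Ly6c1 had 683 ± 142 FPKM with IFN-γ, 590 ± 51.5 FPKM with IL-27 and 192 ± 46.4 FPKM with IL-33 alone (SD, n = 3 each), log2 changes of 1.83 and 1.64 with limma adjusted p-values of 0.00216 and 0.00728. Ly6c2 rose with IFN-γ, by a log2 change of 2.91 with a limma adjusted p of 0.00536, and reads of these near-identical genes may be split between them. Ly6a, above, and Cd52, named after its values were seen (log2 change 1.26, limma adjusted p 0.0114), were the others that rose with IFN-γ. The median log2 change of the list was 0.90 with IFN-γ and 0.68 with IL-27, beside 0.03 and 0.01 over all tested genes.

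Genes that work directly with the 7 were counted in 6 further lists. Of ICOS signalling and Icos mRNA regulators 8 were tested, of KIT ligand and signalling genes 8, of KLRG1 ligands and phosphatases 3, of lectin-like receptors near Klrg1 and Cd69 3, of CD45 partners and Src kinases 8, and of genes around CD69 and egress 4. With limma 0 of the 33 different genes were called in any comparison, beside the 2.91%, 1.03% and 0% of all tested genes. At an unadjusted p under 0.05 there were 5 of 33 for IFN-γ against IL-33, 2 for IL-27 against IL-33 and 3 between IFN-γ and IL-27, beside 15.4%, 9.51% and 4.39% of all tested genes. With the block limma called 4, 1 and 0 of the 33, beside 11.2%, 5.15% and 0.182%. The counts for IFN-γ against IL-33 are near the shares of all genes. Zc3h12a, whose product Regnase-1 degrades Icos mRNA, had 74.7 ± 31.2 FPKM with IFN-γ and 45.2 ± 13.0 FPKM with IL-33 alone (SD, n = 3 each), with a limma adjusted p of 0.433, or 0.0296 with the block. Fyn, a Src-family kinase on which CD45 acts, had 39.5 ± 2.24 FPKM with IFN-γ and 23.5 ± 1.44 FPKM with IL-33 alone (SD, n = 3 each), with an adjusted p of 0.0933, or 0.0233 with the block. Slc7a5, which pairs with Slc3a2 (CD98) as an amino acid transporter, had 25.1 ± 10.3 FPKM with IFN-γ and 64.1 ± 18.4 FPKM with IL-33 alone (SD, n = 3 each), with an adjusted p of 0.0847, or 0.0015 with the block. Kitl, the KIT ligand, reached at most 2.8 FPKM, and S1pr1, the egress receptor that CD69 opposes, at most 1.4 FPKM, and neither was tested. Without the block, no gene of any of the 9 lists was called between the IFN-γ and IL-27 groups. With the block, Il1rl1 of the gating list was called lower with IFN-γ.

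**Figure D4:**
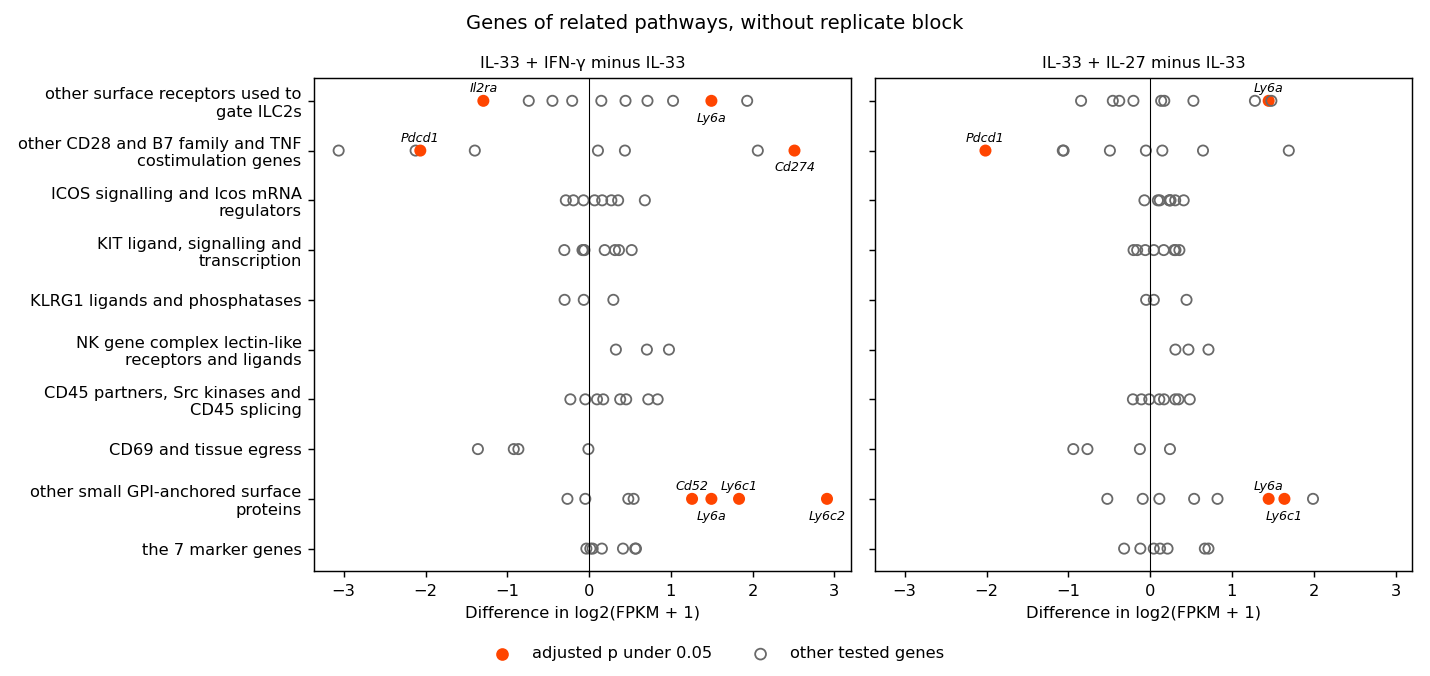
Log2 fold change of each tested gene of the 9 lists of related genes, for IFN-γ against IL-33 and for IL-27 against IL-33, with genes of an adjusted p under 0.05 filled and named and the 7 genes in the lowest row. The list of glycolipid-anchored proteins has the highest number of called genes, 4 with IFN-γ and 2 with IL-27. The lists were chosen with earlier results of these data known.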

How the data were processed

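The deposited tables hold 1 value per gene and library, and their headers call the cells NH cells. The unit is not written in them: FPKM, as scaled by the authors, was inferred from a Cufflinks column header and from Cufflinks 2.1.1 being named, with Bowtie2 2.1.0, TopHat2 2.0.8 and build mm9, per the submitters' processing notes. Per the labels, libraries were made by the TruSeq RNA v2 protocol for low samples. In 3 tables, the replicate 3 libraries, values have 1 decimal.

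Values were analysed as log2(FPKM + 1) for genes averaging 1 FPKM or more, with limma 3.58.1 (eBayes with a trend, two-sided) on all 9 libraries and Benjamini-Hochberg adjustment over all tested genes, at a threshold of 0.05. Fold changes are on that scale and understate low genes. The script was tested on simulated data. Libraries of the same number deviated together (correlation 0.128 to 0.367 over 9 pairs, against −0.298 to −0.0251 over 18 other pairs). Equal numbers were therefore treated as pairs in the alternative with a block. The numbers come from the labels, which do not say that equal numbers are pairs. The choice to treat them so rests on the values. Genes and coordinates are from GENCODE vM1 (mm9), and promoters from RefSeq. Depth was estimated from steps between low values and annotated lengths. The 7 genes and the lists were chosen with earlier results of these data known. Up to 3 genes per list are named by their smallest p-value, and 3 per gene of the 7 by likeness, of which 1 is not reported here. Alternatives changed the block, pseudocount, filter, scaling, trend, groups fitted and libraries left out; those that combine the block with replicates 1 and 2 only or with a library left out were chosen after seeing the data.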

Additional observations from a re-analysis of the deposited data

How the results depend on the processing

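Of 609 recomputed values for the 7 genes, 552 kept their direction and side of the threshold, 50 changed sign and 7 newly passed. The replicate block gave 2 calls with IL-27 against IL-33, Icos at 0.71 and Thy1 at 0.67, and changed no other call among the 7 in any comparison. Without small RNAs Klrg1 and Kit with IFN-γ became −0.068 and −0.038 and Cd69 with IL-27 −0.0055. Median-of-ratios scaling gave Klrg1 with IFN-γ −0.021, and a pseudocount of 5 gave Cd69 with IL-27 −0.011. With replicates 1 and 2 only, with or without the block, Icos between IFN-γ and IL-27 was 0.011. The cause was not tested.

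With 1 library left out, with or without the block, log2 changes for IFN-γ against IL-33 spanned −0.18 to 0.22 for Klrg1, 0.23 to 0.86 for Icos, 0.19 to 0.70 for Thy1, −0.43 to 0.33 for Icosl, −0.11 to 0.27 for Kit, −0.014 to 1.23 for Cd69 and −0.0012 to 0.34 for Ptprc, with 0 to 1 genes called. For IL-27 against IL-33 they spanned −0.060 to 0.42 for Klrg1, 0.21 to 1.17 for Icos, −0.51 to 0.24 for Icosl, −0.50 to −0.18 for Kit, 0.45 to 0.95 for Thy1, −0.54 to 0.70 for Cd69 and −0.090 to 0.34 for Ptprc, with 0 to 2 called. For IFN-γ against IL-27 they spanned −0.41 to 0.075 for Klrg1, −0.60 to 0.35 for Icos, −0.19 to 0.39 for Icosl, 0.21 to 0.59 for Kit, −0.47 to −0.06 for Thy1, 0.24 to 0.87 for Cd69 and −0.18 to 0.25 for Ptprc.

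Over all genes, IFN-γ against IL-33 called 241 higher and 79 lower. The block gave 717 and 513, the 2 groups alone 40 lower, removal of small RNAs 128 lower, and replicates 1 and 2 only 148 and 28, or 132 lower with the block. IL-27 against IL-33 called 100 higher and 13 lower, the block 371 and 196, the 2 groups alone 61 higher, no trend 8 lower, and replicates 1 and 2 only 65 and 3, or 154 and 34 with the block. IFN-γ against IL-27 called 0, against 6 higher and 14 lower with the block and at most 1 higher and 2 lower under no filter, no trend or replicates 1 and 2 only. Omitting 1 library gave 134 to 594 higher and 27 to 406 lower for IFN-γ, and 46 to 355 and 4 to 189 for IL-27. Icosl rests on the fewest fragments of the 7, about 9.95 to 29.1 per library.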
